A study of Mus musculus with 9 samples.

Results

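The BCL-2 family survival and death genes described here are 10 genes picked by symbol from the 23415 genes of the deposited expression table: Bcl2, Bcl2l1, Mcl1, Bax, Bak1, Bcl2l11, Bid, Bad, Pmaip1 and Bbc3 (in capitals in the table, as BCL2, BCL2L1, BCL2L11, MCL1, BAX, BAK1, BID, BAD, PMAIP1 and BBC3). They were measured in colonic CD4+ T cells after T cell transfer colitis, a model in which transferred naive T cells expand in a host without lymphocytes and inflame its colon. The 4 knockout libraries came from recipients of naive CD4+ CD25- CD45RBhigh T cells of CD160 knockout donors, and the 5 control libraries from recipients of the same population of wildtype littermates. All recipients were Rag1-/- mice, which make no T or B cells of their own, and the colonic cells were sorted at the peak of disease. The labels give no age, no other allele and no statement of whether each library is a separate recipient, so the p-values measure the spread between libraries. CD160 is a surface receptor found on T and NK cells, and the comparison asks what its loss does to gene expression in T cells during colitis. Values are TPM, a share of all transcripts in a library, which are corrected for transcript length and library total, and the depth behind them is unknown. On GRCm38.p6, in RefSeq's annotation, Bcl2 spans chr1:106538176-106714290, Bcl2l1 chr2:152758732-152833803, Mcl1 chr3:95656944-95663179, Bax chr7:45461695-45466903 and Bak1 chr17:27019812-27028627. Of the BH3-only genes, Bcl2l11 spans chr2:128126038-128162547, Bid chr6:120893119-120917062, Bad chr19:6941861-6951905 and Bbc3 chr7:16308398-16318334, and Pmaip1 lies on chromosome 18. All 10 genes passed the filter of 1 TPM in at least 4 libraries and were tested.

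The BCL-2 family decides at the outer mitochondrial membrane whether a cell survives. Bcl2, Bcl2l1 (BCL-XL) and Mcl1 hold back death by binding pro-death relatives, Bax and Bak1 form pores that release cytochrome c when they are set free, and the BH3-only members Bcl2l11 (BIM), Bid, Bad, Pmaip1 (NOXA) and Bbc3 (PUMA) relay stress by occupying the survival proteins or by activating the pore formers. In T cells Bcl2 and Mcl1 are maintained by cytokines such as IL-7 and IL-15, Bcl2l1 is raised by activation, and BIM ends the life of many effector T cells after a response. Much of this control acts on protein binding, phosphorylation and turnover, which transcript levels do not show.

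The control library numbered 1 stood apart from the others. It had 7308 genes at 1 TPM or more, against 11088 to 11711 in the other 8 libraries, and its values lay far below them for most genes, so that the log2 differences of all tested genes, knockout minus control, had a median of 0.46 with this library and -0.014 without it. The tests of the 10 genes are therefore given with all 9 libraries and without control replicate 1, and differences with all 9 libraries are to be read against that shift of 0.46. Cd160 stood at 5.44 to 18.8 TPM in knockout and 31.8 to 212.4 TPM in control libraries, and an entry for the reporter protein tdTomato was listed at 0 in all 4 knockout libraries but at 2.52 to 8.78 TPM in controls. The labels name no reporter, and this difference and the loss of CD160 cannot be told apart. T cell markers summed to 3977 to 5208 TPM in knockout and 1768 to 5640 TPM in control libraries, and none of the 9 was at 0. Without control replicate 1, 1 of these 9 had a positive log2 difference, and 3 had an unadjusted p under 0.05. Macrophage markers summed to 8474 to 15174 TPM in knockout and 1003 to 9354 TPM in control libraries. All 10 macrophage markers were above 0 in every library, and all 10 had positive log2 differences, with 8 at an unadjusted p under 0.05 and 0 past the adjusted threshold of limma. The part of these cells in the results below was not tested, apart from 1 fit with macrophage markers as a covariate. The sums in knockout and control libraries were 48.3 to 70.6 and 7.81 to 54.4 TPM for dendritic cells, 66.2 to 364.1 and 4.53 to 147.9 for stroma, 51.2 to 78.0 and 9.16 to 73.4 for epithelium, and 24.2 to 150.1 and 20.3 to 325.4 for neutrophils. They were 6.70 to 33.8 and 5.57 to 87.4 TPM for CD8 T cells, 4.85 to 9.48 and 3.14 to 42.4 for NK cells, and 2.43 to 12.9 and 0.84 to 8.06 for B cells, of which Ms4a1 and Pax5 were at 0 throughout. In such bulk samples fewer cells of a type and less RNA per cell cannot be told apart.

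No difference between knockout and control libraries passed the test for any of the 10 BCL-2 family genes. With limma, a linear model fitted across all genes, on log2(TPM + 1), 0 of 10 passed an adjusted p of 0.05, where 2 of 11495 tested genes (0.0174%) did. Leaving out control replicate 1, again 0 of 10 passed, against 3 of 11457 genes (0.0262%). Cd160 itself did not pass in limma either, at a log2 difference of -2.79 (adjusted p 0.572) with 9 libraries. Without control replicate 1 its difference was -3.11 (adjusted p 0.113). A count of 0 of 10 therefore does not show that the genes are unchanged. At an unadjusted p under 0.05 the count was 0 of 10 with all libraries, where the background was 6.39% of genes, and 0 of 10 without control replicate 1, where it was 12.8%. Knockout and control libraries overlapped for all 10 genes in both sets of libraries, whereas the groups did not overlap for 4.93% of all tested genes with 9 libraries and 7.02% with 8. All 10 log2 differences were positive with 9 libraries, with a median of 0.48 beside the 0.46 of all tested genes, but 5 of 10 were positive after median-of-ratios scaling of the same libraries and 4 of 10 after quantile scaling. Without control replicate 1, 8 were positive and 2 negative, with a median of 0.18 against -0.014. The two-sided exact permutation test, run gene by gene with all 9 libraries, gave unadjusted p-values between 0.103 and 0.817 for the 10 genes, where 7.36% of all genes were under 0.05 and 0% passed after adjustment. The smallest p it can give here is 0.00794. With adjustment over 11495 genes, a gene could pass only if very many shared that smallest p, so the 0% says little.

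**Figure D1:**
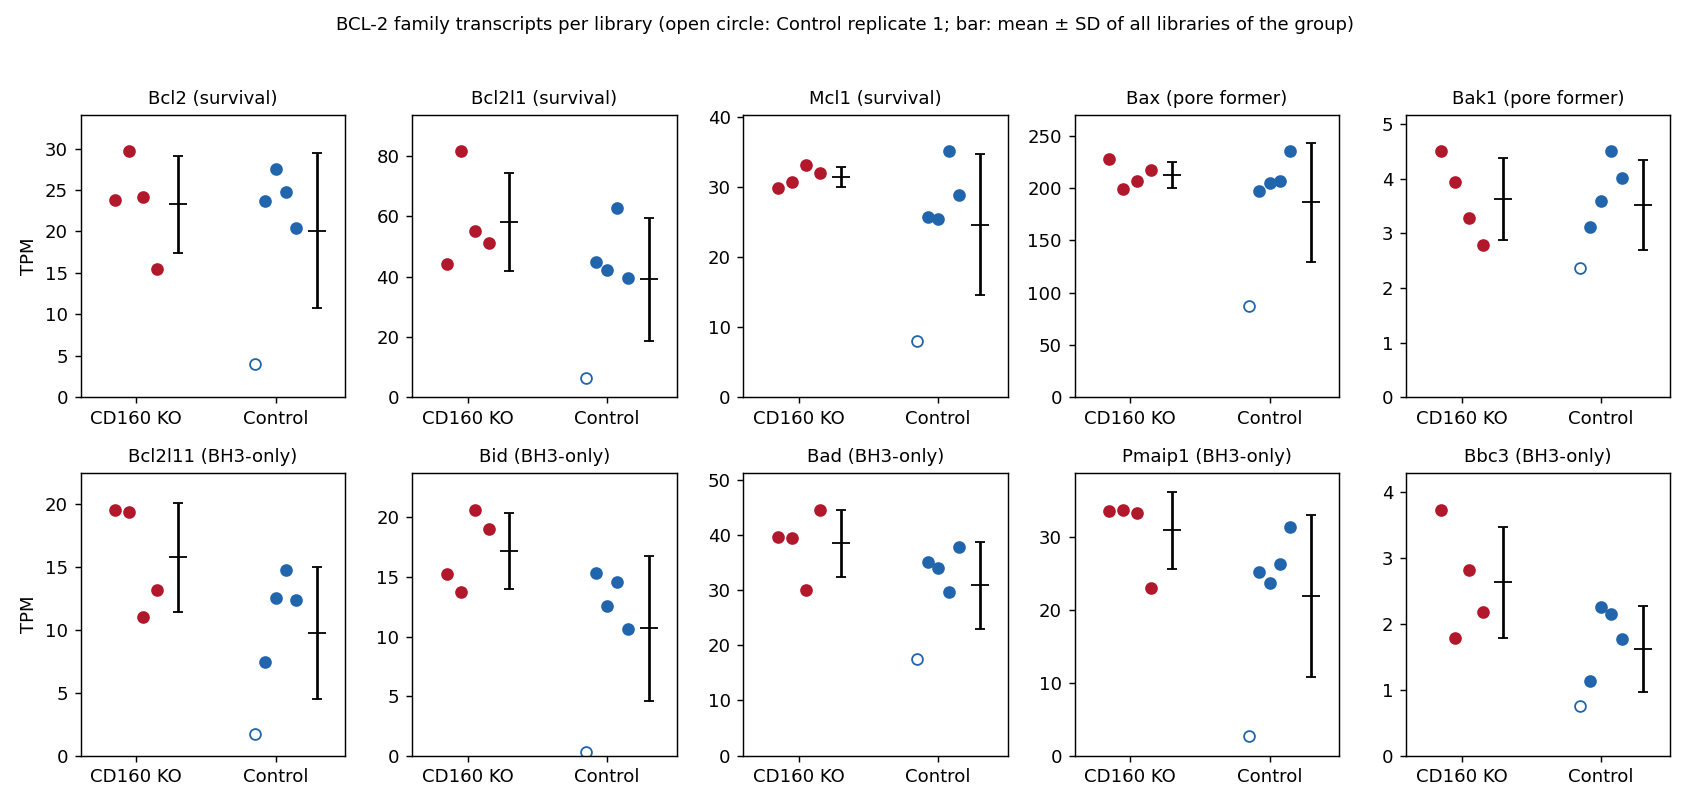
TPM of each of the 10 genes in every library, knockout left and control right, on linear axes from 0; points are libraries, the open circle is control replicate 1, and bars are the mean ± SD of all libraries of a group. The open circle is the lowest control in all 10 panels, and the filled circles of the groups overlap in each.

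The order of the 10 genes by level was firm at both ends and loose in the middle. Bax was the most abundant in every one of the 9 libraries, with a mean level of 211.6 ± 13.6 TPM (SD, n = 8, without control replicate 1), above 97.4% of all genes in the table. Next came Bcl2l1 at 52.7 ± 13.9 TPM, which lay above Bad in 8 of 8 libraries although their ranges overlapped. Bad, Mcl1, Pmaip1 and Bcl2 followed at 36.3 ± 5.09, 30.1 ± 3.40, 28.8 ± 4.70 and 23.7 ± 4.29 TPM. These middle levels were not cleanly ordered, since Mcl1 exceeded Pmaip1 in 4 of 8 libraries and Bad exceeded Mcl1 in 6 of 8. Bid and Bcl2l11 stood lower, at 15.2 ± 3.27 and 13.8 ± 4.08 TPM, and neither was steadily the higher, with Bid ahead in 4 of 8 libraries. Bak1, the other pore former, was far below Bax at 3.72 ± 0.633 TPM, and Bbc3 was lowest at 2.23 ± 0.776 TPM. In these 8 libraries Bax, Bcl2l1, Bak1 and Bbc3 each held the same rank throughout, at 1, 2, 9 and 10. In control replicate 1 Bid was the lowest and Bbc3 the next above it. These are levels of bulk libraries that also held macrophage transcripts, and the part of each cell type in the order was not tested.

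**Figure D2:**
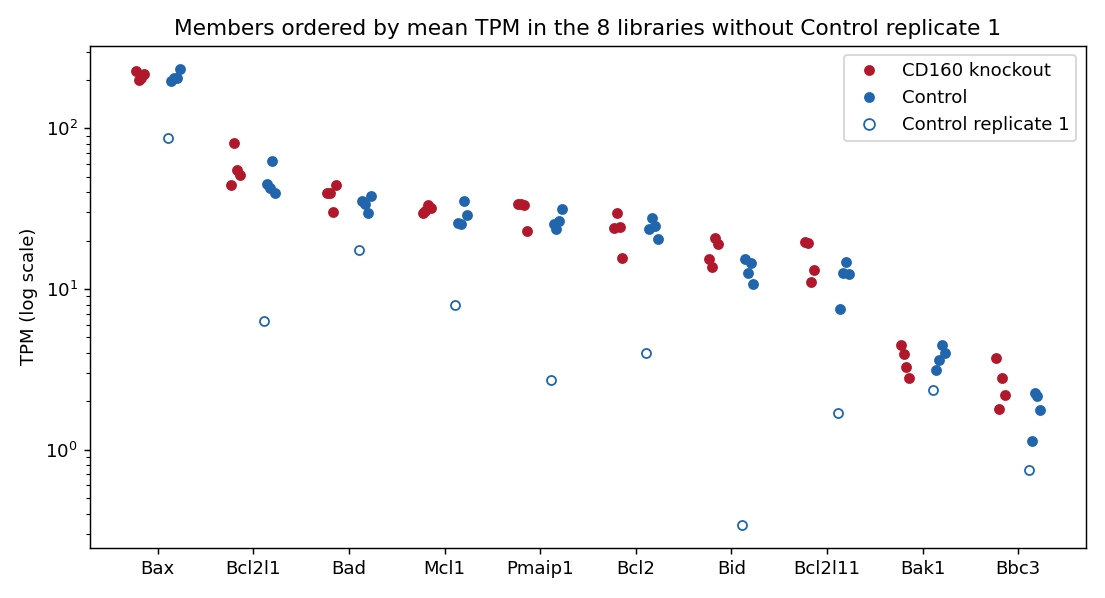
Levels of the 10 genes in TPM on a log axis, ordered from left to right by the mean over the 8 libraries without control replicate 1; red points are knockout and blue points control libraries, and the open circle is control replicate 1. Bax stands alone at the top near 211.6 TPM, 7 genes lie between the means of 52.7 and 13.8 TPM, and Bak1 and Bbc3 lie below 5 TPM in every library.

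Among the survival genes, Bcl2, the founding member and a main guardian of resting and memory T cells, reached 23.8, 29.7, 24.1 and 15.5 TPM in knockout replicates 1 to 4. In control replicates 1 to 5 its level was 3.97, 23.7, 27.5, 24.8 and 20.5 TPM. Both the highest and, leaving aside control replicate 1, the lowest value were knockout libraries, so that the knockout values enclosed those of control replicates 2 to 5. The log2 difference was 0.39 (SE 0.56, adjusted p 0.745). Without control replicate 1 it was -0.076 (SE 0.19; 95% interval -0.51 to 0.35; adjusted p 0.928). With control replicate 1 kept, the Bcl2 difference was also negative under median-of-ratios and quantile scaling, at -0.17 and -0.16, so that its sign depended on the library and on the scaling.

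Bcl2l1, which encodes BCL-XL and is raised in activated T cells, reached 44.4, 81.6, 55.2 and 51.2 TPM in knockout libraries. Controls had 6.35, 44.9, 42.4, 62.7 and 39.5 TPM. Knockout replicate 2 was the highest library, control replicate 4 exceeded the other 3 knockouts, and control replicates 3 and 5 lay below every knockout. The mean levels were 58.1 ± 16.3 TPM in knockout libraries against 47.4 ± 10.4 TPM in control replicates 2 to 5 (SD, n = 4 each). This was a log2 difference of 0.27 (SE 0.21; 95% interval -0.19 to 0.74; adjusted p 0.643). With all 9 libraries the difference was 0.81 (SE 0.61, adjusted p 0.745). When the mean of the macrophage markers was added as a covariate to the fit of 8 libraries, the Bcl2l1 difference was 0.059 (SE 0.28, adjusted p 0.954). In that covariate fit the differences of Bcl2 and Mcl1 were 0.044 and 0.048, that of Bax 0.11 and that of Bak1 0.17, and none passed.

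Mcl1, a short-lived guardian needed by T cells at most stages, had 29.8, 30.7, 33.2 and 32.0 TPM in knockout libraries. The control values were 7.97, 25.7, 25.5, 35.1 and 28.9 TPM. Its knockout values were the tightest of the survival genes, at 31.4 ± 1.47 TPM (SD, n = 4), and they lay between control replicate 4 above and the other controls below. Without control replicate 1 the log2 difference was 0.13 (SE 0.12; 95% interval -0.14 to 0.41; adjusted p 0.705), and with that library it was 0.48 ± 0.47 (SE, adjusted p 0.745). On the scale of TPM + 1 the interval without control replicate 1 runs from 0.909-fold to 1.32-fold.

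Of the pore formers, Bax, whose protein moves from the cytosol to mitochondria to form pores, was at 227.2, 198.5, 206.2 and 217.4 TPM in knockout libraries. In controls it stood at 86.97, 197.3, 204.6, 206.9 and 234.8 TPM. Leaving aside control replicate 1, the lowest and the highest library were both controls, and the means were 212.3 ± 12.6 TPM in the 4 knockout libraries against 210.9 ± 16.4 TPM in the 4 controls besides replicate 1 (SD). The log2 difference of Bax without that library was 0.011 (SE 0.079; 95% interval -0.17 to 0.19; adjusted p 0.976). That interval, the narrowest of the 10 genes, leaves room for changes between 0.89-fold and 1.14-fold. With all 9 libraries the difference was 0.26 (SE 0.36, adjusted p 0.745).

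Bak1, the pore former that sits in the mitochondrial membrane, was near the lower end of the family. Its level was 4.50, 3.95, 3.28 and 2.79 TPM in knockout and 2.36, 3.11, 3.59, 4.50 and 4.01 TPM in control libraries. The 2 groups shared their highest value, and the ranges were almost the same. The log2 difference was 0.043 (SE 0.28, adjusted p 0.931) with 9 libraries. Without control replicate 1 it was -0.059 (SE 0.17; 95% interval -0.45 to 0.33; adjusted p 0.939).

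The BH3-only genes had positive differences both with and without control replicate 1, none of them past the threshold. Bad was negative under median-of-ratios and quantile scaling of all 9 libraries, Bbc3 under quantile scaling and Bid with the macrophage covariate. Each of these negative values was smaller in size than its standard error. Bcl2l11, which encodes BIM and limits the survival of effector T cells, had 19.5, 19.4, 11.0 and 13.1 TPM in knockout libraries. Control replicates 1 to 5 had 1.69, 7.46, 12.5, 14.8 and 12.4 TPM. Knockout replicates 1 and 2 lay above every control, while knockout replicate 3 lay below 3 of the 5. The mean was 15.8 ± 4.34 TPM in knockout libraries against 11.8 ± 3.08 TPM in control replicates 2 to 5 (SD, n = 4 each), a ratio of 1.34. On the log2 scale this was 0.39 (SE 0.25; 95% interval -0.17 to 0.95; adjusted p 0.569). All 9 libraries gave 0.83 (SE 0.55, adjusted p 0.745). With the macrophage covariate in the fit of 8 libraries, the difference of Bcl2l11 was 0.85 (SE 0.28, adjusted p 0.374). Its unadjusted p was then 0.0169, the only one under 0.05 among the 10 genes, in a fit where 10.2% of all genes were under that level and 0.00873% were called. The same fit gave 0.26 for Bad, 0.38 for Pmaip1 and 0.64 for Bbc3, with adjusted p-values of 0.641, 0.551 and 0.49.

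The DNA before the listed starts of Bcl2 and Bcl2l11 is shown because these genes form the survival and death pair whose ratio is given further on. Both windows are the 250 bases before a RefSeq start on GRCm38.p6, read 5′ to 3′ on the gene's strand, and neither overlaps an exon of the GENCODE annotation. The Bcl2 window is chr1:106714291-106714540 on the minus strand, and the Bcl2l11 window, before the first of its 2 listed starts, is chr2:128125788-128126037 on the plus strand. Capitals mark matches on either strand to the box motif GGGCGG bound by factors such as SP1, to the motif CCAAT bound by NF-Y, or to the motif GTAAACA bound by forkhead factors such as FOXO, and none of these matches overlap.
Bcl2: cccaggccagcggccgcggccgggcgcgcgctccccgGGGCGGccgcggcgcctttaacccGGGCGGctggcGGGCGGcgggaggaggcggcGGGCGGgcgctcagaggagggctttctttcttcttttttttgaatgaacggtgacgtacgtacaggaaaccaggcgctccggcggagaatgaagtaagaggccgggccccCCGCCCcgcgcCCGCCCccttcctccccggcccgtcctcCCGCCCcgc
Bcl2l11: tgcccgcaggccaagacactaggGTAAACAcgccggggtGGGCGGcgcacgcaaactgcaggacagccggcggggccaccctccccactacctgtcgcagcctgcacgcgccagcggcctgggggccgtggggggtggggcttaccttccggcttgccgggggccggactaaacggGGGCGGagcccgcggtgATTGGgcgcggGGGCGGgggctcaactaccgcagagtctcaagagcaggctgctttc
Both windows were rich in G and C, at 74.8% for Bcl2 and 72.0% for Bcl2l11, where the median of 32851 listed promoters was 52.4%. They held 36 and 24 CpG pairs against a median of 6. The Bcl2 window held GGGCGG 7 times and neither of the other motifs, and the Bcl2l11 window held GGGCGG 3 times, CCAAT 1 time and GTAAACA 1 time. Of all listed promoters, 32.7% held GGGCGG, 33.8% held CCAAT and 3.17% held GTAAACA in the same 250 bases. Searches for CACGTG (6.02% of all promoters), for TTCNNNGAA (7.02%), for TATAAA (12.4%), for TGACGTCA (1.55%) and for the p53 half-site (7.13%) found no match in either window, and CCGGAAG (6.91%) matched 1 time in the Bcl2l11 window. The window before the second listed start of Bcl2l11, chr2:128127325-128127574, held GGGCGG 2 times, CCAAT 2 times and neither GTAAACA nor CCGGAAG. These matches describe the letters and do not show that a factor binds there.

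Bid, which links death receptors to mitochondria once caspase-8 has cut it, had the smallest unadjusted p of the family without control replicate 1. Its levels were 15.3, 13.7, 20.7 and 19.0 TPM in knockout and 0.34, 15.3, 12.5, 14.6 and 10.7 TPM in control libraries. Knockout replicates 3 and 4 were above all controls, knockout replicates 1 and 2 lay within the control range, and control replicate 1 was almost empty of Bid. The log2 difference without that library was 0.34 with a standard error of 0.17, an interval from -0.039 to 0.73, an unadjusted p of 0.0727 and an adjusted p of 0.45. It was 1.02 (SE 0.71, adjusted p 0.745) in all 9 libraries, the highest value of the family. The fit of 8 libraries with the macrophage covariate gave Bid a difference of -0.0049 with a standard error of 0.18, too small against that error to give a direction. The libraries with the most macrophage transcripts, knockout replicates 4 and 3 with 15174 and 13634 TPM over the marker list, were those with the most Bid, and the part of such cells in the difference was not tested beyond this fit.

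Bad, whose binding to BCL-XL is blocked when growth factor signals phosphorylate it, had 39.6, 39.5, 30.0 and 44.6 TPM in knockout libraries. In control libraries it had 17.6, 35.2, 34.0, 29.7 and 37.7 TPM. Knockout replicates 1, 2 and 4 were above every control and knockout replicate 3 was lower than all controls but replicates 1 and 4. The log2 difference without control replicate 1 was 0.16 (SE 0.14; 95% interval -0.15 to 0.47; adjusted p 0.694). With all libraries it was 0.34 (SE 0.39, adjusted p 0.745).

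Pmaip1, which encodes NOXA and chiefly neutralises MCL1, followed the same outline. Its level was 33.6, 33.8, 33.3 and 23.0 TPM in knockout and 2.70, 25.2, 23.7, 26.3 and 31.4 TPM in control libraries. Here knockout replicates 1 to 3 lay close together above all controls, and knockout replicate 4 lay below control replicates 2 to 5. The log2 difference without control replicate 1 was 0.20 (SE 0.15; 95% interval -0.15 to 0.54; adjusted p 0.65), and with it 0.78 (SE 0.63, adjusted p 0.745).

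Bbc3, the p53 target that encodes PUMA, was the least abundant of the 10 genes. Levels were 3.73, 1.79, 2.81 and 2.18 TPM in knockout and 0.75, 1.13, 2.26, 2.15 and 1.77 TPM in control libraries. Knockout replicates 1 and 3 were above all controls and the others lay among them. The ratio of the mean levels was 1.44 without control replicate 1, yet the log2 difference was 0.35 (SE 0.22; 95% interval -0.14 to 0.84; adjusted p 0.562). In all 9 libraries it was 0.48 with a standard error of 0.28, an unadjusted p of 0.113, the smallest of the family in that fit, and an adjusted p of 0.745. At these levels the log2(TPM + 1) scale understates a change.

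**Figure D3:**
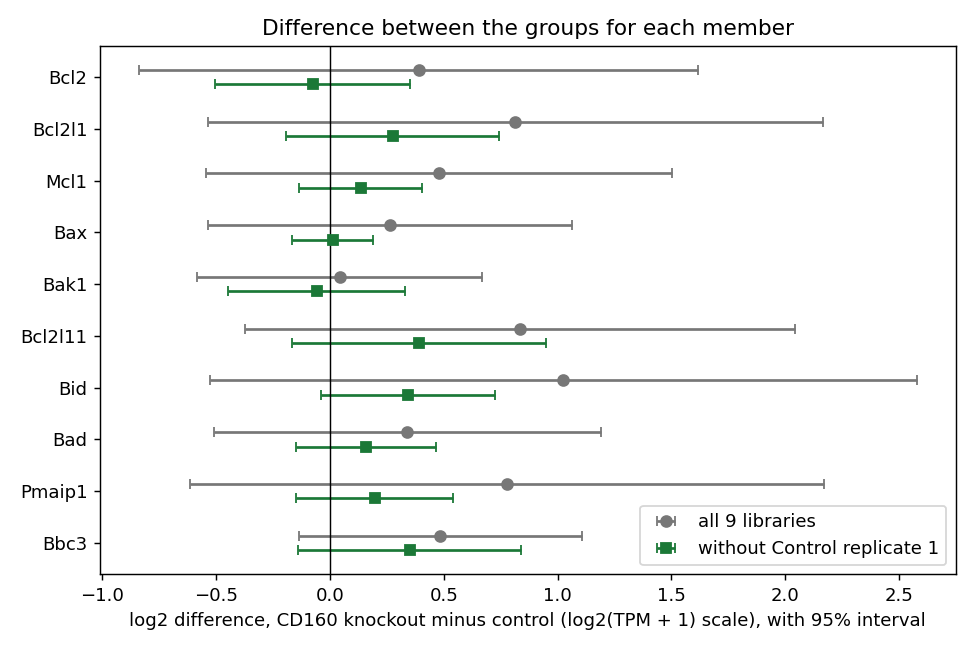
Log2 difference of each gene, drawn on the log2(TPM + 1) scale as knockout minus control, with 95% intervals from limma; grey circles use all 9 libraries and green squares leave out control replicate 1. Every interval includes 0, and those without control replicate 1 are narrower, down to -0.17 to 0.19 for Bax.

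Ratios of 2 genes within a library, computed on TPM + 1, describe the balance of the family and are given without a test. The log2 ratio of Bcl2 to Bcl2l11 was 0.27, 0.59, 1.06 and 0.22 in knockout libraries. In control replicates 1 to 5 it was 0.89, 1.55, 1.08, 0.71 and 0.68. It was below all 5 controls in 3 of the 4 knockout libraries, and control replicate 1 lay within the range of the other controls. The means were 0.54 ± 0.39 in the 4 knockout libraries against 0.98 ± 0.35 in the 5 controls (SD), a difference of -0.44 that was -0.47 without control replicate 1. The log2 ratio of Bcl2l1 to Bcl2 averaged 1.28 ± 0.34 in the 4 knockout libraries against 0.86 ± 0.30 in the 5 controls (SD), with overlapping ranges of 0.87 to 1.66 and 0.56 to 1.30. Its difference was 0.42 with all libraries and 0.35 without control replicate 1. Mcl1 to Pmaip1 averaged 0.039 ± 0.29 in knockout libraries against 0.10 ± 0.22 in control replicates 2 to 5 (SD, n = 4 each), while control replicate 1 stood at 1.28. The difference of this ratio was -0.30 with all libraries and -0.063 without that library. Bcl2 to Bax was -3.17 ± 0.43 in knockout libraries and -3.08 ± 0.26 in control replicates 2 to 5 (SD, n = 4 each), and -4.15 in control replicate 1. The difference was 0.13 with all libraries and -0.087 without control replicate 1, so that its sign turned.

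The 3 survival genes together amounted to 98.0, 141.9, 112.5 and 98.7 TPM in knockout libraries. Their sum was 18.3, 94.3, 95.4, 122.5 and 88.8 TPM in controls. The groups overlapped, and the ratio of this sum to that of the 7 death genes averaged 0.354 ± 0.0768 in knockout libraries against 0.333 ± 0.0587 in control replicates 2 to 5 (SD, n = 4 each). With control replicate 1, at 0.163, the controls averaged 0.299 ± 0.0916 (SD, n = 5), and the log2 difference was 0.27 with all libraries and 0.077 without that one. The summed level of the 5 BH3-only genes, a sum formed after the values were seen and given without a test, was 111.8, 108.2, 97.9 and 101.9 TPM in knockout and 23.1, 84.3, 85.0, 87.6 and 93.9 TPM in control libraries. Each knockout library was above each control, although no single BH3-only gene separated the groups or passed the test. The sum averaged 104.9 ± 6.25 TPM in knockout libraries and 87.7 ± 4.39 TPM in control replicates 2 to 5 (SD, n = 4 each). Of all tested single genes, 4.93% did not overlap with all libraries and 7.02% without control replicate 1. No such background was formed for sums of 5 genes, so this separation cannot be set against one. Bax made up 66.1%, 63.9%, 67.1% and 67.5% of the summed death genes in knockout libraries, and 77.4%, 69.3%, 69.8%, 69.2% and 70.6% in controls. This share, also formed after the values were seen, did not overlap either. It holds the BH3-only sum in its denominator, so it is not a second separate result. The macrophage marker sums were higher in the knockout libraries as well, apart from control replicate 2 at 9354 TPM, which exceeded knockout replicate 2 at 8474 TPM, and their part in the BH3-only sum was not tested.

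**Figure D4:**
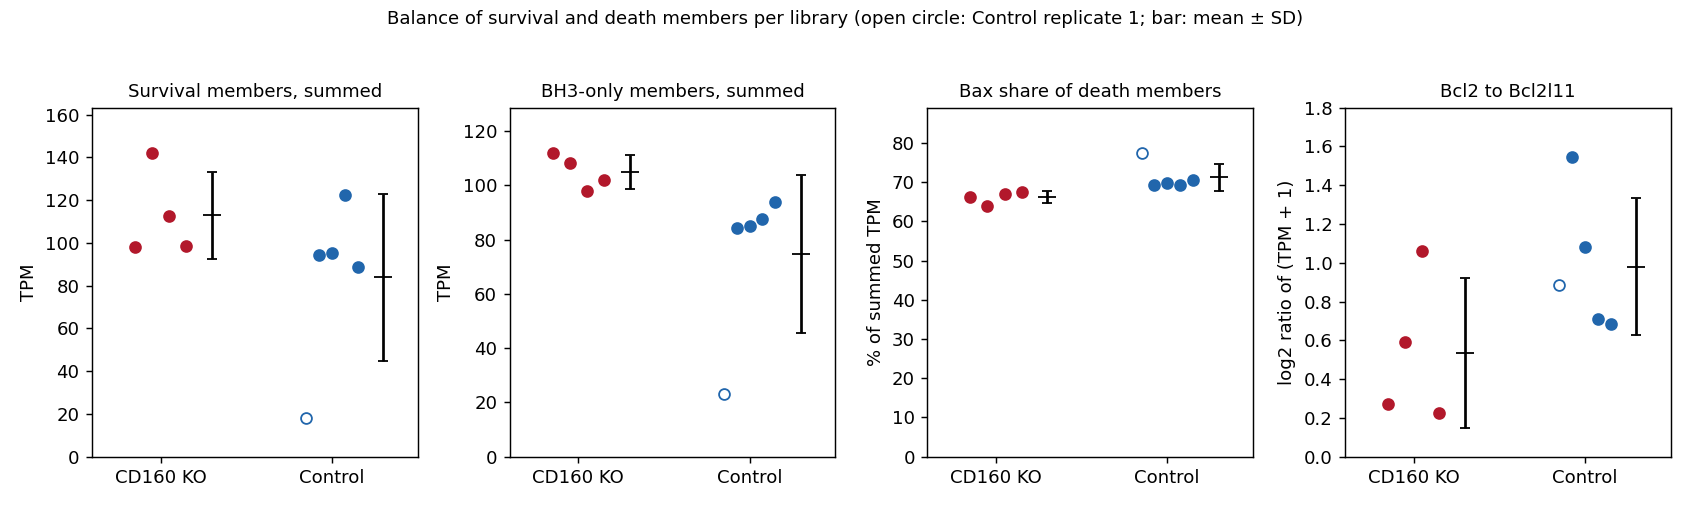
Balance of the family per library, knockout left and control right: summed TPM of the 3 survival genes, summed TPM of the 5 BH3-only genes, the share of Bax in the summed TPM of the 7 death genes, and the log2 ratio of Bcl2 to Bcl2l11 computed on TPM + 1. Points are libraries, the open circle is control replicate 1 and bars are mean ± SD. The BH3-only sums of 97.9 to 111.8 TPM in knockout libraries lie above the controls at 23.1 to 93.9 TPM. That sum, and the share of Bax that holds it in its denominator, were formed after the values were seen and are given without a test.

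The wider cell death pathway also held no called gene. Across 7 lists with 69 genes, 64 were tested and 0 passed in either direction, with all 9 libraries and without control replicate 1. Of all tested genes, 0.0174% and 0.0262% passed in these fits. A count of 0 for these lists, together or singly as below, therefore says little about the pathway. The median log2 difference of these 64 genes was 0.55 with 9 libraries, where that of all genes was 0.46. In the 8 other libraries it was 0.011 against -0.014, with 32 positive and 32 negative differences. At an unadjusted p under 0.05 there were 0 of 64 with 9 libraries, where the background was 6.39% of all genes. Without control replicate 1 there were 5 of 64, 4 higher and 1 lower, where the background was 12.8%. The groups did not overlap for 3 of the 64 (4.69%), Birc3, Tnfrsf1a and Stat5a, both with 9 libraries, where 4.93% of all tested genes did not overlap, and with 8, where 7.02% did not. That share is no larger than the background.

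Other BCL-2 relatives numbered 15, of which Bcl2l10, Bok, Bmf, Hrk and Bcl2l14 did not pass the filter, and 0 of the 10 tested were called. The most abundant were among the Bcl2a1 genes, near-identical copies of the gene for A1, a survival protein of activated lymphocytes and myeloid cells. The split of reads between these copies is uncertain. Their summed level was 1367, 902.5, 804.3 and 1072 TPM in knockout and 492.3, 986.9, 778.2, 869.4 and 953.6 TPM in control libraries. These sums overlapped and were above the level of Bax in every library. Bcl2a1a alone averaged 82.6 ± 42.5 TPM in the 4 knockout libraries against 42.0 ± 13.3 TPM in the 5 controls (SD), a log2 difference of 0.87 (adjusted p 0.745) that was 0.86 (adjusted p 0.359) without control replicate 1. Bcl2a1b had log2 differences of 0.36 and, without that library, 0.17. Bnip3, a mitophagy receptor of hypoxic cells, had 0.99 and 0.50, with adjusted p-values of 0.745 and 0.39.

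Downstream of the mitochondria, 0 of 13 genes of the apoptosome and the caspases were called, with a median log2 difference of 0.57 in 9 libraries and -0.045 without control replicate 1. Casp9, the initiator caspase of the apoptosome, had 0.66 and 0.21 in these fits, Htra2, a mitochondrial protease, 0.89 and 0.11, and the executioner Casp6 0.71 and 0.074. Among 5 inhibitors of apoptosis, with medians of 0.57 and -0.13, the ubiquitin ligase Birc3 (cIAP2) had values that did not overlap between the groups, with or without control replicate 1. It stood at 44.1, 52.5, 46.3 and 47.8 TPM in knockout libraries, against 42.5, 34.6, 42.9 and 37.4 TPM in control replicates 2 to 5 and 1.63 TPM in control replicate 1. The log2 difference was 0.27 without that library (adjusted p 0.313) and 1.06 with it (adjusted p 0.745). Xiap and Birc2 had 0.57 and 0.64 with 9 libraries, and 0.15 and -0.13 with 8.

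In the death receptor pathway 0 of 11 genes were called, and the medians were 0.28 with all libraries and -0.014 without control replicate 1. Tnfrsf1a, the main receptor for TNF and widely expressed by myeloid and stromal cells too, was 57.2, 57.1, 58.8 and 67.6 TPM in knockout libraries. Control replicates 2 to 5 had 45.7, 49.2, 43.4 and 39.9 TPM and control replicate 1 had 5.32 TPM. All knockout values were above all controls, as for Birc3 and Stat5a among the 64 pathway genes tested. The macrophage marker sum was highest in knockout replicate 4, which was also highest for Tnfrsf1a. Among controls, Tnfrsf1a was highest in replicate 3, whose macrophage sum of 2532 TPM was below the 9354 TPM of replicate 2. The part of macrophages in this difference was not tested. The log2 difference of Tnfrsf1a was 0.43 (SE 0.098, adjusted p 0.145) without control replicate 1, and 1.00 (adjusted p 0.745) in 9 libraries. The cytokine Tnf, named after its values were seen, averaged 134.8 ± 30.6 TPM in knockout libraries against 204.7 ± 67.6 TPM in control replicates 2 to 5 (SD, n = 4 each). Its log2 difference there was -0.56 (adjusted p 0.386), but with all 9 libraries, control replicate 1 being at 30.1 TPM, it was -0.030 (adjusted p 0.976). Ripk1, a kinase of the receptor complex, and Tnfrsf10b, the mouse TRAIL receptor, had log2 differences of 0.52 and -0.42 with 9 libraries, and 0.16 and -0.27 with 8.

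The channels of the outer mitochondrial membrane, Vdac1, Vdac2 and Vdac3, had log2 differences of 0.75, 0.83 and 0.61 with 9 libraries and of 0.11, 0.045 and -0.0012 without control replicate 1, and 0 of 3 were called. Of 18 upstream regulators 0 were called, with medians of 0.65 and 0.076 in the 2 fits. Stat5a, which carries cytokine signals to Bcl2 and Bcl2l1, stood at 29.0, 25.2, 22.8 and 24.6 TPM in knockout libraries, against 15.6, 22.4, 21.4 and 19.9 TPM in control replicates 2 to 5. These values did not overlap, and control replicate 1 had 1.72 TPM. The log2 difference of Stat5a was 0.35 without that library (adjusted p 0.329) and 0.93 with it (adjusted p 0.745). Cdkn1a, a p53 target that halts the cell cycle, had 0.59 and 0.61, and Nfkb1 0.86 and 0.22. For 4 genes that control the turnover of the MCL1 protein the medians were 0.33 and -0.20, and 0 were called. In the fits with 9 and 8 libraries, Usp9x, which stabilises MCL1, had 0.45 and 0.029, the ligase Huwe1 0.46 and -0.12, and Btrc 0.21 and -0.37.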

How the data were processed

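Per the labels' protocols, each of the 9 libraries was made from sorted colonic CD4+ T cells by a modified SMART-Seq2 method, which copies whole transcripts, and was read from both ends. The authors deposited TPM values in a single table. Trimmomatic 0.32, Bowtie2 2.2.9, RSEM 1.2.31 and GRCm38 are named, without settings, per the submitters' processing notes. TPM keeps no depth, so no count test, interval on counts or floor was possible, and a few abundant transcripts lower all others in a library.

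Group and replicate were read from each sample's title. limma 3.58.1 (R 4.3.3; lmFit, eBayes with an intensity trend) was fitted to log2(TPM + 1) for genes that reached 1 TPM in 4 or more libraries. Benjamini-Hochberg adjustment ran over all genes tested, and calls needed an adjusted p under 0.05. A positive log2 difference means higher in knockout. The alternatives were a pseudocount of 0.1 or 5, dropping the filter or raising it to 5 TPM, scaling by quantiles or by median-of-ratios, robust variance, an exact permutation test, a replicate block, each library left out, and, without control replicate 1, scaling, block and macrophage covariate. The fit was also run on simulated data, with noise drawn gene by gene and without the shared shift of control replicate 1. That run cannot speak for fits that hold this library. Members and lists were chosen with earlier results of these data known. All members were named, with up to 3 genes of each pathway list by smallest p. Of the marker genes the lists' sums are given. Bcl2a1c and Bcl2a1d enter a sum only. Gene names, coordinates and promoters come from RefSeq (GRCm38.p6), where 10 of 10 members matched a gene and 9 a promoter, and exons from GENCODE. Figures used matplotlib 3.10.9 in Python 3.11.15.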

Additional observations from a re-analysis of the deposited data

Results flagged for a closer look

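In 7 of 30 groups examined (each of 10 genes and 5 ratios in both genotypes) a library lay far from the others of its group, where chance gives about 1 in 20. The gap to the nearest library, as a share of the group's range, exceeded Dixon's 95% critical value. The 30 groups reuse the same 9 libraries, and 6 of the 7 flags fell on control replicate 1. They are not independent, so the count of 7 cannot be set against 1 in 20. On the log2(TPM + 1) scale, control replicate 1 was lowest for Bcl2 at 2.31 (other controls from 4.42 to 4.83), for Bcl2l1 at 2.88 (5.34 to 5.99), for Mcl1 at 3.17 (4.73 to 5.17), for Bax at 6.46 (7.63 to 7.88), for Bid at 0.42 (3.54 to 4.03) and for Pmaip1 at 1.89 (4.63 to 5.02). Pmaip1 was also low in knockout replicate 4 at 4.58, where the other knockout libraries lay from 5.10 to 5.12, and there the library itself did not stand apart in the number of genes detected.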

How the results depend on the processing

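The count of called members was 0 under all 21 alternatives, and the smallest adjusted p of a member was 0.374. Among these, the exact permutation test could call a gene only if very many genes shared its smallest p. Of 208 differences of members recomputed, 189 kept their sign and 19 reversed. Dropping the filter, the filter of 5 TPM, robust variance and the exact permutation test leave the difference itself unchanged. Their signs are thus kept by construction, and the tally does not measure stability. Median-of-ratios scaling of all 9 libraries took the median of all genes to 0.018 and gave -0.17 for Bcl2, -0.10 for Mcl1, -0.35 for Bax, -0.46 for Bak1 and -0.26 for Bad. Quantile scaling gave -0.16, -0.069, -0.0092, -0.52 and -0.13 for the same genes and -0.025 for Bbc3. With libraries left out, including the combined settings without control replicate 1, the differences ranged from -0.17 to 0.56 for Bcl2, from -0.12 to 0.17 for Bak1, which also turned without knockout replicate 1, and from -0.0049 to 1.24 for Bid. Without control replicate 1, Bcl2 was at -0.076 and Bak1 at -0.059, and median-of-ratios scaling of those 8 libraries gave -0.074 and -0.055. Leaving out a single library moved Bak1 no higher than 0.13, without knockout replicate 4. Among pathway genes Birc2, Vdac3, Huwe1 and Btrc turned without control replicate 1, to -0.13, -0.0012, -0.12 and -0.37, an alternative chosen for them after seeing the data. The count of all genes called, 2 in the fit of 9 libraries, was 1 with a pseudocount of 5 or quantile scaling and 0 without a filter, with the filter of 5 TPM, with the replicate block and in the exact permutation test, where 846 genes had an unadjusted p under 0.05. It ranged from 0 to 4 with libraries left out: 0 without any 1 of the other 8 libraries, 3 without control replicate 1, and then 4 with median-of-ratios scaling, 1 with the macrophage covariate and 0 with the replicate block. The cause of these changes was not tested. Same-numbered libraries did not deviate together (correlations from -0.14 to -0.017 over genes), 0 of 4 knockout libraries correlated best with the control of its number, and the block, in which the unpaired control replicate 5 has no weight, called 0 members. Within-library ratios moved by less than 1 SD in all 55 recomputed values, yet the difference of Bcl2 to Bax, 0.13 with 9 libraries, was -0.087 without control replicate 1 and -0.030 without knockout replicate 2, and without control replicate 1 that of Mcl1 to Pmaip1 went to -0.063, against -0.30, and that of survival to death genes to 0.077, against 0.27. TPM hold no depth, so the counting error of low genes such as Bbc3 and Bak1 is unknown.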

Other observations

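Mcl1 is the member nearest to the targeted gene. It lies at 95656944 to 95663179 on chromosome 3 (GRCm38.p6), 1.14 Mb from Cd160. Of 74 tested genes within 2 Mb of Cd160, 14 (18.9%) had an unadjusted p under 0.05 with 9 libraries, where 6.39% of all tested genes did, and 13 (17.6%) without control replicate 1, where 12.8% did. Of the 14, 4 were tRNA entries with identical values, and with entries of identical TPM counted once in both sets the counts were 11 of 67 (16.4%, against 6.29% of all) with 9 libraries and 13 of 67 (19.4%, against 12.8%) without control replicate 1. These genes include the macrophage receptor gene Fcgr1 and the protease gene Ctss, with log2 differences of 1.81 each in the libraries where macrophage marker sums were also higher, and Tmod4, with 2.37, named after their values were seen. Tmod4 was the only 1 of the 74 genes called by limma, both with and without control replicate 1. The 2 genes called among all tested genes with 9 libraries were Tmod4 and the tdTomato entry. Mcl1 was not among the 14, with an unadjusted p of 0.326 that placed it 29 of 74 with 9 libraries.

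The drop of control replicate 1 was uneven over the family. Bid stood there at 2.56% of its mean in control replicates 2 to 5, Pmaip1 at 10.1%, Bcl2l1 at 13.4%, Bcl2l11 at 14.4%, Bcl2 at 16.5%, Mcl1 at 27.7%, Bbc3 at 41.0%, Bax at 41.2%, Bad at 51.5% and Bak1 at 62.1%. The median of the 10 genes was 22.1%, and that of 11492 tested genes 11.5%. The 3 members with the shortest longest coding transcripts in GENCODE, Bax with 1100, Bad with 1533 and Bbc3 with 1814 nt, kept 41.0% to 51.5%, and the 2 with the longest, Bcl2 with 7191 and Bcl2l11 with 5036 nt, kept 16.5% and 14.4%. Bid and Bak1, at 2189 and 2387 nt, differed most in what they kept, at 2.56% and 62.1%. Bcl2l1 with 2568 and Pmaip1 with 2727 nt kept 13.4% and 10.1%, less than both of the longest. Mcl1 with 3418 nt kept 27.7%. A link with length was not tested.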
